A study of Rattus norvegicus with 8 samples.

Results

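The comparison described here set the intestinal epithelium of rats that drank deep-sea water of 1200 hardness (DSW1200) against that of rats under water restriction (WR). It was taken from 4 of the 8 arrays of the series, the 2 titled DSW1200 and the 2 titled water restriction, and covered 9258 genes out of 14217 with a probe set of a single gene symbol. The remaining 4 arrays held tap water (TW) and selenium water (SeW), which entered the shared estimate of the spread, and TW is given beside some genes as a further level. The study asked whether such water alters genes of oxidative stress and apoptosis in the duodenal epithelium.

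All rats were Wistar and 4 months old by the labels, and female by the study's methods. DSW1200, TW and SeW were drunk for 3 days, and WR lasted 12 h according to the labels, while the methods also mention a longer restriction. DSW1200 was sea water drawn from depth and passed through reverse osmosis and electrodialysis, which leaves a water richer in magnesium, sodium and potassium than TW. The kind of water, the access to water and the length of the regime all differed between DSW1200 and WR, and they cannot be told apart here. Cells were shaken loose from pieces of proximal small intestine in dithiothreitol and EDTA, so the RNA came from a mixture of the cells of villi and crypts. In such bulk samples, fewer cells of a type and less RNA per cell cannot be told apart. No source used here says whether the 2 arrays of a group came from separate rats or pools, so p-values measure only the spread between arrays, which may be technical.

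Absorptive cells of the proximal small intestine take up sugars, amino acids, fat, iron and calcium, and they package fat into chylomicrons. The same cells can make glucose and burn fatty acids, and genes of both routes are known to answer to feeding, glucagon, glucocorticoids and fatty acids acting through PPARalpha. They meet oxidants from food through the glutathione and thioredoxin systems, several genes of which are driven by the transcription factor Nrf2. The cells of the crypt base divide to renew the sheet, and Paneth cells beside them release antimicrobial defensins.

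Reference promoters of 4 genes that the comparison returns to are printed first, since each holds letters of a motif type known in the control of glucose production, the Nrf2 response or the circadian clock. They are windows of 300 bases from RefSeq on build GRCr8, 250 bases before to 50 after the gene start, read 5′ to 3′ on the gene's strand. They are reference sequence, not measurements on these rats. In capitals are a cAMP response element type motif in Pck1 (chr3:182348322-182348621, plus strand), an antioxidant response element type motif in Srxn1 (chr3:161064562-161064861, plus strand), a D-box and then an E′-box in Per2 (chr9:99496944-99497243, minus strand), and an E-box in the second listed start of Nr1d1 (chr10:84229405-84229704, minus strand).
Pck1: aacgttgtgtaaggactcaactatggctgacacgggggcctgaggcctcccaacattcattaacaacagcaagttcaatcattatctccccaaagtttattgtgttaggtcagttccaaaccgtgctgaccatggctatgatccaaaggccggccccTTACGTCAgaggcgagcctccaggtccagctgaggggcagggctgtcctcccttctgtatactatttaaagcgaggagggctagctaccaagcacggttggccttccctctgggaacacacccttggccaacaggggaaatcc
Srxn1: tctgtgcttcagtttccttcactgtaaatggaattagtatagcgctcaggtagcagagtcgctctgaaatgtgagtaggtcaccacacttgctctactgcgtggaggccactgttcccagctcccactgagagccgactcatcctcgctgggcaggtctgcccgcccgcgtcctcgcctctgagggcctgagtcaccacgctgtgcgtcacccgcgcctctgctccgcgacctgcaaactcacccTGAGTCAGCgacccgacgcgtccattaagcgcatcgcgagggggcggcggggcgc
Per2: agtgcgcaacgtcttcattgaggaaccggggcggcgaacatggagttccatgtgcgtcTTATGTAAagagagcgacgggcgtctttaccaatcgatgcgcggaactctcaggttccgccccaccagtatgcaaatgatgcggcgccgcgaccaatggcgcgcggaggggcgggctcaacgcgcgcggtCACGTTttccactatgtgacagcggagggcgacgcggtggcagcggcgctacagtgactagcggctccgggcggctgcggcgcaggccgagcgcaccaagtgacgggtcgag
Nr1d1: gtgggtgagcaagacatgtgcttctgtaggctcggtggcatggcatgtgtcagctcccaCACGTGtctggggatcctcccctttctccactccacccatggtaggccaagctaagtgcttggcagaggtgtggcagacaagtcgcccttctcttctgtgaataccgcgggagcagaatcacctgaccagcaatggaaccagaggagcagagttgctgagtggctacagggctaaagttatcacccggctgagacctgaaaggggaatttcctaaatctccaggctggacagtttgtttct
Both strands of all 33469 RefSeq windows were searched for the same letters. TTACGTCA or TGACGTCA stood in 2.62% of them, TGANTCAGC in 1.11%, TTATGTAA in 0.893%, CACGTT in 4.83% and CACGTG in 6.42%. A match describes the letters and does not show that a factor binds there. Of the 30 genes with the largest differences named below, 20 had an entry in that table.

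Signal here is the MAS5 intensity of a probe set after quantile normalization over the 8 arrays, and each gene is given by its brightest probe set. The deposited arrays had median signals of 6.1 and 7.0 for DSW1200 and 9.0 and 8.0 for WR. The ratio of 3′ to 5′ signal of beta-actin, which is larger where RNA is broken or copied short, was 32.8 and 27.1 for DSW1200 and 21.1 and 24.8 for WR, and that of GAPDH was 3.86 and 3.00 for DSW1200 and 2.35 and 2.73 for WR. Neither ratio overlapped between DSW1200 and WR, and their part in the results was not tested beyond a fit with the actin ratio as a covariate. In that fit 12 of 104 genes followed had log2 changes over 1.5 times smaller, 20 had log2 changes over 1.5 times larger and 4 turned direction. Pairs of one group correlated at 0.922 for DSW1200 and 0.936 for WR over all probe sets, and pairs of a DSW1200 and a WR array at 0.924 to 0.930. Arrays of the 2 groups were therefore about as alike as arrays of 1 group. Epithelial identity was clear in all 4 arrays: Vil1, the actin bundler of microvilli, was at 3275 and 3186 in DSW1200 and 2795 and 2996 in WR, and Fabp2, the intestinal fatty acid binding protein, at 5557 and 5321 in DSW1200 and 5142 and 4643 in WR.

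No gene passed an adjusted p of 0.05 in limma between DSW1200 and WR (0.00% of 9258 genes, Benjamini-Hochberg). The smallest adjusted p was 0.0534, for Pck1, and the next was 0.663, for Defa24. At an unadjusted p of 0.05 limma gave 541 genes, where chance alone gives 462.9. Of these, 281 were higher in DSW1200 (3.04% of tested genes) and 260 were lower (2.81%). With 2 arrays against 2, an exact permutation test of a single value cannot go below a two-sided p of 0.333.

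A looser description asks for both DSW1200 arrays on one side of both WR arrays, which held for 1622 genes above WR (17.5%) and 1670 below (18.0%). The study's own criterion, a 2-fold difference, was met together with that separation by 91 genes above WR (0.983%) and 125 below (1.35%). Most of these were faint. A mean signal of 32 or less was found for 184 of the 216 (85.2%), against 36.9% of all tested genes, which left 32 brighter genes. Values as deposited, not normalized between arrays, gave 25 higher and 388 lower genes by the same criterion, with a median log2 change over all genes of -0.32. Within a group, 783 genes were 2-fold apart between the 2 DSW1200 arrays and 453 between the 2 WR arrays. The brightness limit for testing, a mean signal above 6.69 (the median probe set), was passed only with the help of the higher group by 38 of the 216 genes, 17 above WR and 21 below. In those 38 the higher group had to exceed the mean of the other arrays, so their place in the count depended on that group.

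**Figure D1:**
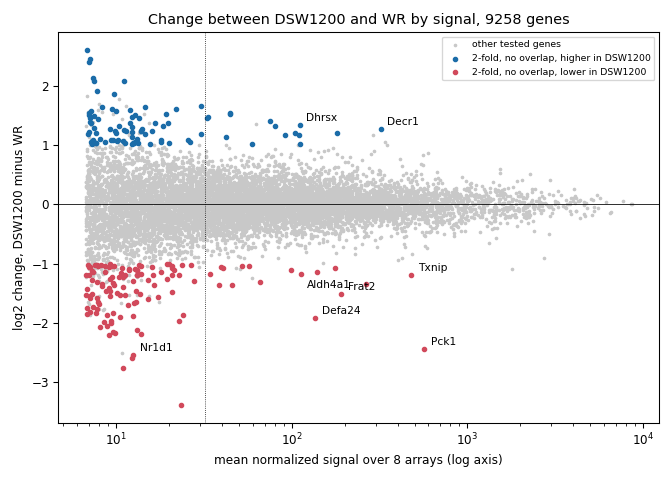
Log2 change of 9258 genes (DSW1200 minus WR, vertical axis) against their mean normalized signal over 8 arrays (horizontal log axis). Blue points are the 91 genes at least 2-fold higher in DSW1200 with no overlap and red points the 125 at least 2-fold lower; the dotted line marks a signal of 32, below which most coloured points lie, and Pck1 stands apart among brighter genes.

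Pck1, the cytosolic phosphoenolpyruvate carboxykinase that commits carbon to glucose, showed the widest separation among bright genes. Its signal was 134 and 269.7 in DSW1200, against 1109 and 966 in WR. Both DSW1200 arrays lay below both TW arrays (485 and 393), and both WR arrays lay above them. The log2 change was -2.45 ± 0.28 (SE, limma; 95% interval -3.07 to -1.83), a 5.45-fold lower signal in DSW1200, with an adjusted p of 0.0534. The log2 change stayed between -2.95 and -1.94 under the alternatives tried, while its adjusted p ran from 0.00179 without DSW1200 array 2 to 0.596 without an intensity trend, and was under the threshold in 7 alternatives, values as deposited (0.0224) and median centring (0.0376) among them. With the beta-actin ratio as a covariate the log2 change was -2.07 and the adjusted p 0.323. The 2 SeW arrays (1155 and 1222) were as high as WR.

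Txnip, Pdk4, Aldh4a1 and Bcl6 also had lower signals in DSW1200, none of them past the adjusted threshold. Txnip, which binds thioredoxin and restrains glucose uptake, was at 261 and 302 in DSW1200, against 641 and 645 in WR. The log2 change came to -1.20 ± 0.22, and TW lay between at 488 and 472. Pdk4, the kinase that shuts pyruvate dehydrogenase and spares glucose, was at 335 and 331 in DSW1200, against 606 and 585 in WR. Its log2 change was -0.84 ± 0.28, but -0.33 with the beta-actin covariate and -0.45 averaged over its probe sets. For Pdk4 the TW arrays (387 and 764) ran from near the DSW1200 level to above WR. Aldh4a1, a mitochondrial enzyme of proline breakdown, was at 203 and 129.6 in DSW1200, against 368 and 455 in WR. This was a log2 change of -1.34 ± 0.27. Bcl6, a transcriptional repressor of lipid and immune genes, was fainter and lay at 17.2 and 9.47 in DSW1200, against 29.3 and 48.1 in WR. In these genes the DSW1200 and WR arrays did not overlap.

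The list of genes raised by glucocorticoids, which holds Pck1 and Pdk4, had 16 tested members. Of these, 10 were lower in DSW1200 and 6 higher, with a median log2 change of -0.24 beside -0.00473 over all genes. Both DSW1200 arrays lay under both WR arrays for 6 members (37.5%) and above them for 1 (6.25%), against 18.0% and 17.5% of all genes. Tsc22d3, a leucine zipper protein that glucocorticoids induce, was at 454 and 688 in DSW1200, against 816 and 801 in WR. Its standard error was wide, and the log2 change was -0.53 ± 0.29, or -0.14 with the beta-actin covariate. Leaving out single arrays of DSW1200 or WR placed the list's median between -0.39 and -0.025. Of 21 tested genes of glycolysis and gluconeogenesis, 15 were higher and 6 lower. Only Pck1, Pck2 and Aldoa separated, all 3 below WR (14.3%, under the 18.0% of all genes). Pck2, the mitochondrial form of the same enzyme, was near background at 2.62 and 6.35 in DSW1200 and 11.3 and 18.8 in WR. Aldoa, an aldolase, had a log2 change of -0.21 ± 0.17; it was chosen after its values were seen.

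Decr1, the mitochondrial reductase that lets unsaturated fatty acids enter beta-oxidation, led the genes higher in DSW1200. Its signal was 444 and 524 in DSW1200, against 217 and 185 in WR. The log2 change was 1.27 ± 0.24, a 2.41-fold higher signal, with an adjusted p of 0.72, and TW lay between at 297 and 266. Angptl4, a secreted inhibitor of lipoprotein lipase and a target of PPARalpha, was at 27.9 and 62.1 in DSW1200, against 20.4 and 16.6 in WR. DSW1200 array 2 was more than 2-fold above array 1, and the log2 change was 1.18 ± 0.36. Slc25a25, a calcium-regulated carrier of ATP into mitochondria, was at 95.1 and 74.4 in DSW1200, against 45.9 and 37.5 in WR, with a log2 change of 1.02 ± 0.23. Its DSW1200 and WR arrays were apart. Among 32 tested genes of fatty acid oxidation and ketogenesis, 18 were higher and 14 lower, with a median log2 change of 0.13. The arrays separated for 12 members above WR (37.5%) and 7 below (21.9%), against 17.5% and 18.0% of all genes. Both shares were above those of all genes, and the 2 members at the ends, Decr1 above and Txnip below, ran opposite ways.

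Genes of fat absorption and lipoproteins were mostly a little higher in DSW1200. Of 26 tested members, 20 were higher and 6 lower, with a median log2 change of 0.13. The arrays separated for 11 above WR (42.3%) and for 1 below (3.85%), against 17.5% and 18.0% of all genes. Of the 26, 0 passed the adjusted threshold. Summed over the 26 genes, signal was 52362 and 50579.5 in DSW1200, against 47964 and 44760 in WR, with no overlap. Leaving out single arrays kept the median between 0.06 and 0.18, and it was 0.04 on values as deposited, where that of all genes was -0.32.

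Apoc2, the cofactor of lipoprotein lipase carried on chylomicrons, was at 1791 and 1827 in DSW1200, against 1469 and 1074 in WR. Apoa4, an apolipoprotein made by the intestine after fat, was at 2308 and 2161 in DSW1200, against 1901 and 1293 in WR. Their log2 changes were 0.53 ± 0.16 and 0.51 ± 0.18, and in both genes TW was as high as DSW1200 (1839.5 and 1969.9 for Apoc2, 2498 and 2605 for Apoa4), so WR was the low group. Dgat2, which adds the last fatty acid to a triglyceride, was at 524 and 478 in DSW1200, against 362 and 343 in WR. Sar1b, the small GTPase that loads chylomicrons into transport vesicles, was at 1354 and 1322 in DSW1200, against 1097 and 1072 in WR. Their log2 changes were 0.50 ± 0.16 and 0.30 ± 0.13. All 4 genes had close pairs within DSW1200, and the lowest DSW1200 array was above the highest WR array.

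**Figure D2:**
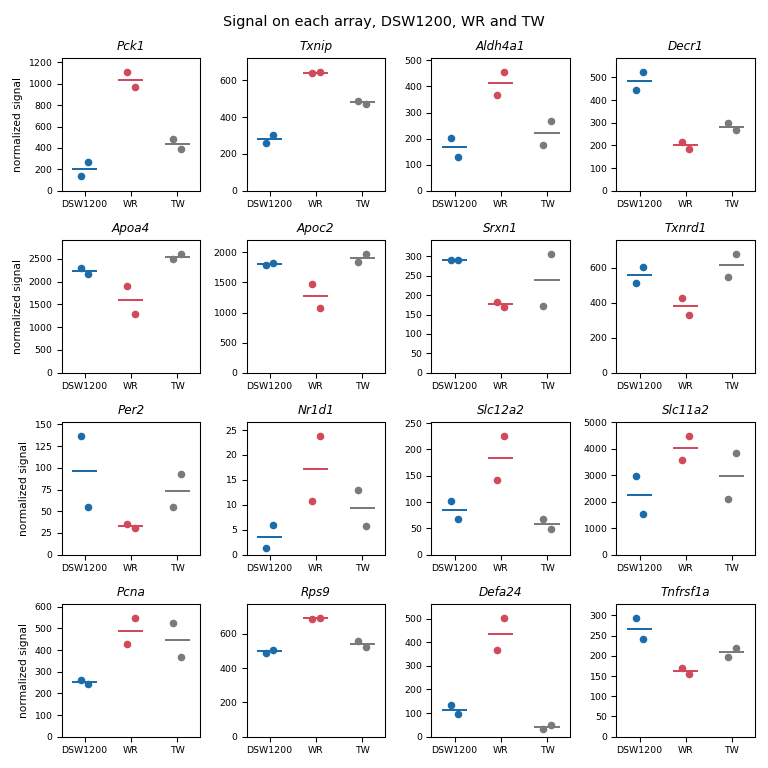
Normalized signal (vertical axis, linear from 0) of 16 genes on each array, with DSW1200 in blue, WR in red and TW in grey; points are arrays and lines the mean of 2 arrays. Pck1 lies at 134 and 269.7 in DSW1200 and at 1109 and 966 in WR, and Decr1 runs the other way.

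Nrf2 target genes gave a one-sided picture on a small scale. Of 24 tested members 17 were higher in DSW1200 and 7 lower, with a median log2 change of 0.13. The arrays separated for 7 above WR (29.2%) and for 0 below, against 17.5% and 18.0% of all genes. The median was not stable: it was -0.06 without DSW1200 array 2 and 0.32 without DSW1200 array 1. Srxn1, which restores overoxidized peroxiredoxins and carries the antioxidant response element type motif printed above, was at 291 and 289.8 in DSW1200, against 183 and 169.5 in WR. The difference on the log2 scale was 0.72 ± 0.24, and the TW arrays (172 and 306) spanned both groups. Txnrd1, the selenoprotein that reduces thioredoxin and one of the genes the study followed, was at 514 and 606 in DSW1200, against 430.0 and 330.4 in WR. The fitted log2 change was 0.57 ± 0.19 with an adjusted p of 0.841, and another bright probe set of the gene had the same sign. TW for Txnrd1 was at 549.6 and 679. Pgd, which makes NADPH in the pentose phosphate route, was at 204 and 465 in DSW1200, against 202 and 136 in WR. Only DSW1200 array 2 was clearly above WR for Pgd. Gstm1, a glutathione transferase, was faint at 23.4 and 21.3 in DSW1200 and 13.6 and 5.49 in WR.

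The wider set of 37 antioxidant genes, not all of them enzymes (Txnip and Mt1 are members), was balanced. Of these 22 were higher and 15 lower, with a median log2 change of 0.08. The arrays separated for 5 above WR (13.5%) and 6 below (16.2%), both under the share of all genes. Sod1, the cytosolic superoxide dismutase, was at 834 and 1182 in DSW1200, against 767 and 872 in WR, and the groups overlapped. Gpx2, a selenium-dependent peroxidase typical of gut epithelium, was at 2102 and 1768 in DSW1200, against 1737 and 1620.1 in WR. Its arrays were apart by a small step, with a log2 change of 0.20 ± 0.18. Gsr, glutathione reductase, was at 27.2 and 43 in DSW1200, against 46.9 and 21.9 in WR, with complete overlap and a log2 change of 0.09 ± 0.38. Mt1, a metal-binding metallothionein, was at 149 and 97.5 in DSW1200, against 97.7 and 69.9 in WR. Its DSW1200 array 2 fell just short of WR array 1.

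The study listed 20 oxidative stress genes as raised under DSW1200 against TW, from PCR arrays of the same treatments. That list is therefore not independent evidence, and it rests on TW, not on the WR arrays used here. Of the 20 genes, 18 had a probe set and 12 were tested, 8 higher and 4 lower, with a median log2 change of 0.10. Srxn1 and Txnrd1 separated above WR (16.7%), and Txnip and Park7 below (16.7%), near the 17.5% and 18.0% of all genes. In DSW1200 Txnip also lay below TW, opposite to the direction the study gave for it, and Txnrd1 overlapped TW. Park7, a sensor of oxidants, had a log2 change of -0.19 ± 0.17. Of 6 oxidative stress genes that the study listed as lowered under WR against TW, 4 were tested, and 0 of them separated. The 18 tested selenoprotein genes had a median log2 change of 0.12, with 5 members separated above WR (27.8%) and 2 below (11.1%). Selenoh, a nuclear selenoprotein, was the clearest of the lower ones at 71 and 97.7 in DSW1200, against 111 and 123 in WR. Selenon, an endoplasmic reticulum selenoprotein, was the other at 17 and 14.6 in DSW1200 and 32.6 and 21.2 in WR. The median of the selenoprotein list ran from 0.014 to 0.082 when single arrays of DSW1200 or WR were left out. That median was -0.14 on values as deposited, where that of all genes was -0.32.

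Genes of cell death showed no common direction. Of 31 tested pro-apoptotic genes, 18 were higher in DSW1200 and 13 lower, with a median log2 change of 0.04, and the arrays separated for 5 above WR (16.1%) and 6 below (19.4%). Of 18 anti-apoptotic genes, 11 were higher and 7 lower, with a median log2 change of 0.09, and the arrays separated for 3 above (16.7%) and 2 below (11.1%). The 11 tested genes of the study's apoptosis list, also chosen by PCR and set against TW in the study, had a median log2 change of 0.10. Only Gadd45a separated, below WR (9.09%, under the 18.0% of all genes).

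Tnfrsf1a, the main receptor of tumour necrosis factor, was at 293 and 240.5 in DSW1200, against 169 and 154 in WR. Its log2 change was 0.71 ± 0.18, and TW lay between at 197 and 219. Bcl2l11, the death activator Bim, was at 38.6 and 14.3 in DSW1200, against 52.7 and 53.1 in WR. The WR pair was tight and the DSW1200 pair wide, and the log2 change was -1.17 ± 0.43. Casp6, an executioner caspase, was at 212 and 133 in DSW1200, against 216 and 277 in WR. For Casp6 DSW1200 array 1 nearly met WR array 1. Birc3, an inhibitor of apoptosis and a target of NF-kB, was at 50.5 and 42 in DSW1200, against 99.2 and 58.2 in WR. The log2 change came to -0.72 ± 0.29, and to -0.30 with the beta-actin covariate.

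Bad, a death promoter of the Bcl2 family, was at 31.3 and 23.3 in DSW1200, against 31.6 and 22.4 in WR. The pairs covered the same range, with a log2 change of 0.02 ± 0.32 and a 95% interval of -0.69 to 0.73. Mcl1, a survival protein of that family, was bright at 2192 and 1555 in DSW1200, against 1898 and 1363 in WR, again with overlap. Bcl2 itself was dim, at 4.86 and 0.950 in DSW1200 and 5.39 and 3.95 in WR, and was not tested, and Bax had no probe set of its own here. Gadd45a, a growth arrest gene of the DNA damage response, was at 115 and 77.7 in DSW1200, against 134 and 151 in WR. This was a log2 change of -0.59 ± 0.25. The p53 and DNA damage list had 14 of 20 tested members lower and 6 higher, with a median log2 change of -0.18. Of these, 5 separated below WR (25%) and 2 above (10%), against 18.0% and 17.5% of all genes. Gadd45b, a stress-induced relative of Gadd45a, was at 13.4 and 16.2 in DSW1200 and 18.9 and 48.1 in WR. Gadd45g, the third of that family, overlapped at 38.3 and 10.1 in DSW1200 and 33 and 51 in WR.

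Clock genes had no common direction. The molecular clock runs on Clock and Bmal1, which switch on the repressors of the Per and Cry families and the nuclear receptors Nr1d1 and Nr1d2. The hour at which tissue was taken is not given in the sources used here. Per2 was at 137 and 55.4 in DSW1200, against 35.9 and 30.2 in WR. The difference on the log2 scale was 1.40 ± 0.40, another bright probe set had the same sign, and the TW arrays (54.4 and 92.8) fell on either side of the lower DSW1200 array. Nr1d1 was faint at 1.26 and 5.9 in DSW1200 and 10.7 and 23.8 in WR. Both DSW1200 values were under the brightness limit of 6.69, so no log2 change is given for Nr1d1. Nr1d2 was brighter at 30.3 and 55.8 in DSW1200, against 55.4 and 86.4 in WR, where the groups overlapped slightly. Its log2 change was -0.75, or -0.39 with the beta-actin covariate. Clock was at 257 and 191 in DSW1200, against 167 and 164 in WR, a log2 change of 0.42 ± 0.22 that was 0.0099 with the beta-actin covariate. The 2 SeW arrays were higher than all 4 of these arrays for Nr1d1 (53 and 80.5) and for Nr1d2 (180.2 and 248). Over the 12 tested members, 6 were higher and 6 lower. The arrays separated for 4 above WR (33.3%) and 3 below (25%), against 17.5% and 18.0% of all genes. Per2 had the higher signal in DSW1200 and Nr1d1 the lower one, while the difference of Clock was not seen with the covariate.

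Salt and water genes bear most directly on the regimes compared. Cells that shrink in a salty or dry setting switch on carriers that bring in salt and small organic solutes. Of 17 tested osmotic response genes, 11 were lower in DSW1200 and 6 higher, with a median log2 change of -0.25. The arrays separated for 6 below WR (35.3%) and 1 above (5.88%), against 18.0% and 17.5% of all genes. Slc12a2, the basolateral sodium, potassium and chloride cotransporter that feeds chloride secretion, was at 101 and 68.5 in DSW1200, against 142 and 225 in WR. Its log2 change was -1.10 ± 0.34, and TW was lower than both groups at 67.2 and 48.8, so WR was the high group. Slc38a2, a sodium-driven amino acid carrier induced by hypertonic medium, was at 152 and 219 in DSW1200, against 263 and 264 in WR. TW lay close to WR for Slc38a2 at 252 and 263, so there DSW1200 was the low group. The log2 change of Slc38a2 was -0.53, or -0.22 with the beta-actin covariate, while that of Slc12a2 was -2.04 with it. Sgk1, a kinase induced by aldosterone and by cell shrinkage, was at 1505 and 969.8 in DSW1200, against 1629.7 and 1607 in WR, a log2 change of -0.42 ± 0.25. Leaving out single arrays kept the list's median between -0.33 and -0.08.

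Among the aquaporins 6 were tested, 4 lower and 2 higher. Aqp3, a water and glycerol channel of the basolateral side, was at 196 and 124 in DSW1200, against 204 and 220.0 in WR. Only Aqp3 separated (16.7%, against 18.0% of all genes), with a log2 change of -0.45 ± 0.26. The 29 tested genes of sodium, chloride, potassium and bicarbonate transport had a median log2 change of -0.04, with 5 separated below WR (17.2%) and 1 above (3.45%), against 18.0% and 17.5% of all genes, so the share below was near that of all genes. Car1, a carbonic anhydrase, overlapped at 80.5 and 16.5 in DSW1200 and 50.1 and 149 in WR. Kcne3, a potassium channel subunit of secretory epithelium, overlapped as well at 4.0 and 19.1 in DSW1200 and 18.1 and 24.5 in WR.

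DSW1200 is rich in magnesium, and genes that move magnesium and calcium were examined for that reason. Of 17 tested members, 9 were higher and 7 lower, and the median log2 change was 0.09. S100g, the calcium buffer calbindin at the top of the signal range and chosen after its values were seen, was at 8414 and 9066 in DSW1200 and 8414 and 9066 in WR, since quantile normalization gives equal values to equal ranks. Both DSW1200 arrays lay above both WR arrays for 2 members (11.8%) and below them for 3 (17.6%), both under the shares of all genes. Cnnm3 and Cnnm2, members of a family linked to magnesium export, both lay below WR, while Cnnm4 of the same family, chosen after its values were seen, lay above WR with a log2 change of 0.17 ± 0.18. Cnnm3 was at 17.6 and 20.2 in DSW1200, against 28.3 and 38.1 in WR, and Cnnm2 at 63 and 72.1 in DSW1200, against 101 and 84.4 in WR. Their log2 changes were -0.80 ± 0.27 and -0.46 ± 0.20, and that of Cnnm2 was -0.28 with the beta-actin covariate. Trpv6, the apical calcium channel that vitamin D induces, was at 571 and 468 in DSW1200, against 494 and 359 in WR, with overlap. Slc20a1, a phosphate carrier, also overlapped at 215 and 250.2 in DSW1200 and 226 and 113 in WR.

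Slc11a2 and Cybrd1, which bring in iron, lay below WR. Slc11a2, the apical carrier of ferrous iron in duodenum, was at 2962 and 1549 in DSW1200, against 3586 and 4469 in WR. Cybrd1, the apical ferric reductase that supplies it, was at 999 and 1299 in DSW1200, against 1812 and 1559.7 in WR. The log2 changes were -0.90 ± 0.34 and -0.56 ± 0.21, and that of Cybrd1 was -0.28 with the beta-actin covariate. The TW arrays for Slc11a2 (2096 and 3821) fell 1 in each group's range, and those for Cybrd1 (1394 and 2085) lay above DSW1200. The list of iron, copper and zinc transport had 10 of 16 members lower, with a median log2 change of only -0.03. Its arrays separated for 3 members below WR (18.8%) and 1 above (6.25%), against 18.0% and 17.5% of all genes. The share below was therefore near that of all genes.

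Of 23 tested carriers of sugars, peptides and amino acids, 10 were higher and 13 lower. The arrays separated for 5 above WR (21.7%) and 4 below (17.4%), near the 17.5% and 18.0% of all genes. Slc2a2, the glucose and fructose exit carrier GLUT2, was at 1452 and 2102 in DSW1200, against 1204 and 1121 in WR. The log2 change came to 0.59 ± 0.18. Slc16a10, an aromatic amino acid carrier, overlapped at 171 and 90.7 in DSW1200 and 53.9 and 96.6 in WR. Slc6a20a, a carrier of proline and related amino acids, was at 73 and 45.4 in DSW1200, against 98.4 and 171 in WR, a log2 change of -1.17 ± 0.30, and was brighter still in SeW (327 and 424). The 17 tested brush border genes had a median log2 change of 0.06, and 5 separated above WR (29.4%) but 0 below it. Espn, a bundler of microvillar actin, was at 239.6 and 299 in DSW1200, against 224 and 161 in WR. Enpep, the brush border aminopeptidase A, was at 1710.4 and 1839.5 in DSW1200, against 1375 and 1555 in WR.

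Genes of the unfolded protein response went both ways. Of 25 tested members 16 were higher and 9 lower. The arrays separated for 9 above WR (36%) and 3 below (12%), against 17.5% and 18.0% of all genes. Sdf2l1 and Dnajb11, helpers of the endoplasmic reticulum chaperone BiP, lay above WR. Sdf2l1 was at 77 and 103 in DSW1200, against 53 and 66.9 in WR, and Dnajb11 at 164 and 120.0 in DSW1200, against 97.1 and 110.2 in WR. Asns, the asparagine synthetase induced by amino acid shortage through Atf4, lay below WR at 14.2 and 10.9 in DSW1200, against 16.8 and 29.7 in WR. Their log2 changes were 0.58 ± 0.23, 0.44 ± 0.20 and -0.84 ± 0.36, and that of Dnajb11 was 0.12 with the beta-actin covariate.

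Genes of dividing crypt cells were mostly lower in DSW1200. Of 24 tested members 19 were lower and 5 higher, with a median log2 change of -0.19. The arrays separated for 10 below WR (41.7%) and 2 above (8.33%), against 18.0% and 17.5% of all genes. The summed signal of the 24 was 668 and 669 in DSW1200, against 834 and 1097 in WR. Pcna gave a large part of each sum, and the sums of the other members overlapped. Leaving out single arrays moved the median between -0.49 and -0.19. Pcna, the sliding clamp of DNA replication, was at 263 and 242 in DSW1200, against 429.5 and 547 in WR. This was a log2 change of -0.94 ± 0.21, and TW (523 and 369.9) was nearer to WR. Mki67, present in all dividing cells, was at 27.8 and 27.8 in DSW1200, against 39.6 and 57.6 in WR, while TW was at 28.5 and 22.9, so for Mki67 WR was the high group. Ccna2, the cyclin of S phase, was faint at 10.2 and 2.77 in DSW1200 and 18.4 and 19.7 in WR. Rrm1, a subunit of ribonucleotide reductase, ran the other way at 50.3 and 64.6 in DSW1200 and 29.8 and 39.1 in WR.

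Of 39 tested genes of the cytosolic ribosome, 34 were lower in DSW1200 and 5 higher, with a median log2 change of -0.22. The arrays separated for 15 below WR (38.5%) and 1 above (2.56%), against 18.0% and 17.5% of all genes. The steps were small, and the summed signal overlapped (49784 and 47607 in DSW1200, against 48737 and 59451 in WR). Rps9, of the small subunit, was at 489.7 and 504 in DSW1200, against 688 and 690.4 in WR. Rpl11, of the large subunit, was at 823 and 851 in DSW1200, against 996 and 1303 in WR. Their log2 changes were -0.47 ± 0.14 and -0.44 ± 0.16. After median centring the median of this list was -0.05 beside 0.05 for all genes, and it was -0.02 without WR array 2. Subunits of oxidative phosphorylation leaned the opposite way, with 46 of 66 higher, a median log2 change of 0.06, and 16 separated above WR (24.2%) against 5 below (7.58%). Cox5a, a subunit of cytochrome c oxidase, was at 244 and 241 in DSW1200, against 154 and 163 in WR, a log2 change of 0.61 ± 0.16.

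**Figure D3:**
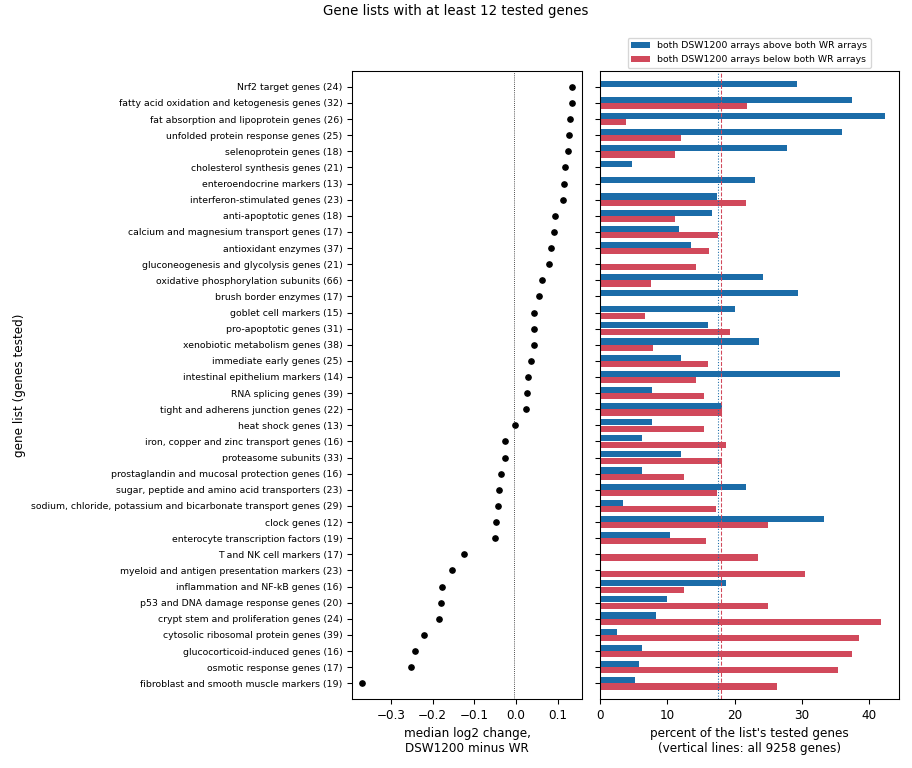
Gene lists with at least 12 tested genes: the left panel gives the median log2 change (DSW1200 minus WR; dotted line, all genes) and the right panel the percent of members with both DSW1200 arrays above (blue) or below (red) both WR arrays, with vertical lines for all 9258 genes at 17.5% and 18.0%. Fat absorption (42.3% above) and proliferation (41.7% below) reach furthest in each direction.

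Markers of other cells differed between the groups in part. All 6 tested Paneth cell markers, of 12 with a probe set, were lower in DSW1200, with a median log2 change of -0.89. The arrays separated for 3 of them (50%, against 18.0% of all genes). Defa24, an alpha-defensin, was at 134 and 96 in DSW1200, against 367 and 502 in WR. The difference on the log2 scale was -1.92 ± 0.32 with an adjusted p of 0.663, and TW was lower than both groups at 31 and 51.6. RatNP-3b, another defensin, was at 17.2 and 16.5 in DSW1200, against 39.6 and 56.2 in WR. Reg3b, a secreted lectin against bacteria, was at 3656 and 431 in DSW1200, against 2605 and 2733 in WR, so the DSW1200 arrays themselves stood on either side of WR. The summed Paneth signal was 5936 and 1163 in DSW1200, against 4221 and 4692 in WR and followed Reg3b. Without DSW1200 array 2 the list's median was -0.17, and without array 1 it was -1.72. The other 6 markers were dim.

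Pancreatic acinar genes, 9 tested and 13 dim of 22 with a probe set, had 7 tested members lower in DSW1200 and 2 higher, with a median log2 change of -0.40. In 2 of them DSW1200 lay wholly below WR (22.2%, against 18.0% of all genes), and in 0 above. Their summed signal overlapped, at 5613 and 1634 in DSW1200, against 3127 and 5652 in WR. Prss1, trypsin, was at 7.33 and 21.3 in DSW1200, against 27.5 and 78.4 in WR, highest on WR array 2. Amy2a3, an amylase chosen after its values were seen, was at 0.400 and 9.0 in DSW1200 and 8.2 and 189.7 in WR. WR array 2 was thus the highest of the 4 arrays for both genes, and the part of pancreatic RNA in the results was not tested. All 3 tested mast cell markers, of 14 with a probe set, were lower in DSW1200, with a summed signal of 60.8 and 102 in DSW1200, against 121 and 166 in WR. Mcpt1, a mast cell protease, was at 18.5 and 54 in DSW1200 and 56.8 and 118 in WR. Its log2 change was -1.37, or -0.79 with the beta-actin covariate.

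Of 19 tested fibroblast and smooth muscle markers 16 were lower and 3 higher, with a median log2 change of -0.37. Against 18.0% and 17.5% of all genes, 5 of these markers separated below WR (26.3%) and 1 above (5.26%). Their summed signal overlapped (498 and 775 in DSW1200, against 806 and 680.4 in WR), and DSW1200 array 1 was the lowest. Without that array the median was 0.03. Of 23 myeloid and antigen presentation markers 14 were lower, with 7 separated below WR (30.4%) and 0 above, while the summed signal overlapped (4848 and 7954 in DSW1200, against 9012 and 5895 in WR). C1qc, a complement subunit of macrophages, was at 46.9 and 48.9 in DSW1200, against 73.9 and 65.8 in WR. Csf1r, the receptor of their growth factor, was at 35.9 and 33.4 in DSW1200 and 48.3 and 49.5 in WR. The 17 tested T and NK cell markers had a median log2 change of -0.13. Of these, 4 separated below WR (23.5%, against 18.0% of all genes) and 0 above, and the T cell marker Cd3e was dim. The 14 tested epithelial markers had a median log2 change of 0.03. The part of these other cells in the gene differences above was not tested. Of 13 tested enteroendocrine markers 11 were higher, with 3 separated above WR (23.1%, against 17.5% of all genes) and 0 below. Among these 3 was Gast, the hormone gastrin, at 33.2 and 34.1 in DSW1200 and 19.7 and 13.8 in WR.

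The 30 genes with the smallest p among those at least 2-fold apart without overlap, 15 in each direction, were mostly genes with no common role. Those above WR, apart from Decr1 and Slc25a25, were led by Ociad2, a mitochondrial protein, at 106 and 168 in DSW1200, against 61 and 57 in WR. Dhrsx, a dehydrogenase of the short-chain family, was at 172 and 172 in DSW1200, against 87 and 53.3 in WR, with nearly equal DSW1200 arrays. Rnf152, a lysosomal ubiquitin ligase that restrains mTORC1, was at 128 and 153 in DSW1200, against 64.8 and 60.2 in WR. Ap4b1, a subunit of an adaptor that sorts cargo at the Golgi, was at 49.8 and 69.3 in DSW1200, against 15.6 and 26.4 in WR. For Dhrsx, Rnf152 and Ap4b1 a TW array reached above both DSW1200 arrays. Mon2, a regulator of trafficking between endosome and Golgi, was at 47.3 and 34.2 in DSW1200, against 16.2 and 10.8 in WR. Its log2 change was 1.60 ± 0.37, or 0.87 averaged over its probe sets.

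The remaining higher genes were faint, with signals under 50. Col17a1, a collagen of hemidesmosomes, was at 42.2 and 41.6 in DSW1200 and 26 and 9.06 in WR. Kcnk10, a two-pore potassium channel, was at 29.7 and 31.5 in DSW1200 and 17.1 and 12.3 in WR. Inpp5j, an inositol phosphatase, was at 22.2 and 29.1 in DSW1200 and 10 and 6.74 in WR. In each of these genes both DSW1200 arrays lay above both WR arrays, and WR array 2 was the lowest. A TW array of Kcnk10 (38.1) and both TW arrays of Col17a1 (46.7 and 47.3) lay above DSW1200. Arrb2, the receptor adaptor beta-arrestin, was at 21.1 and 21.3 in DSW1200 and 9.09 and 9.68 in WR. Emc9, of the membrane protein insertion complex, was at 10.8 and 12.4 in DSW1200 and 2.64 and 1.38 in WR. Ccl9, a chemokine, was at 10.7 and 12.7 in DSW1200 and 2.91 and 2.44 in WR. Letm2, a mitochondrial membrane protein, was at 11 and 18.4 in DSW1200 and 4.22 and 1.73 in WR. Emc9, Ccl9 and Letm2 were near background in all groups and passed the brightness limit of 6.69 only through DSW1200, since their means over the other 6 arrays were 5.72, 6.34 and 5.52, so they had to differ. Arsl, a sulfatase, was at 18.7 and 17 in DSW1200 and 8.04 and 4.88 in WR.

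Below WR, apart from the genes already given, Tcf4, a basic helix-loop-helix factor, was at 45.7 and 62.8 in DSW1200, against 155 and 113 in WR. Frat2, a positive regulator of Wnt signalling, was at 73.2 and 103 in DSW1200, against 198 and 309 in WR, a log2 change of -1.51 ± 0.33. Ccdc68, a centriole protein, was at 126 and 110.4 in DSW1200, against 265 and 232 in WR. TW lay between the groups for Frat2 (163 and 127) and for Tcf4 (76 and 78.6). Pstpip2, an adaptor of the actin skeleton in myeloid cells, was at 32.6 and 34.4 in DSW1200, against 65.4 and 72.7 in WR. Farsb, a subunit of the phenylalanine tRNA ligase, was at 25.2 and 22.3 in DSW1200, against 41.9 and 58.2 in WR. Ptprb, a phosphatase of endothelium, was at 21.3 and 22.4 in DSW1200, against 43.1 and 66.6 in WR, where TW was lower than DSW1200. The other 3, Nav1, Pla2g12a and Tgfb1i1, had log2 changes between -1.87 and -1.07.

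**Figure D4:**
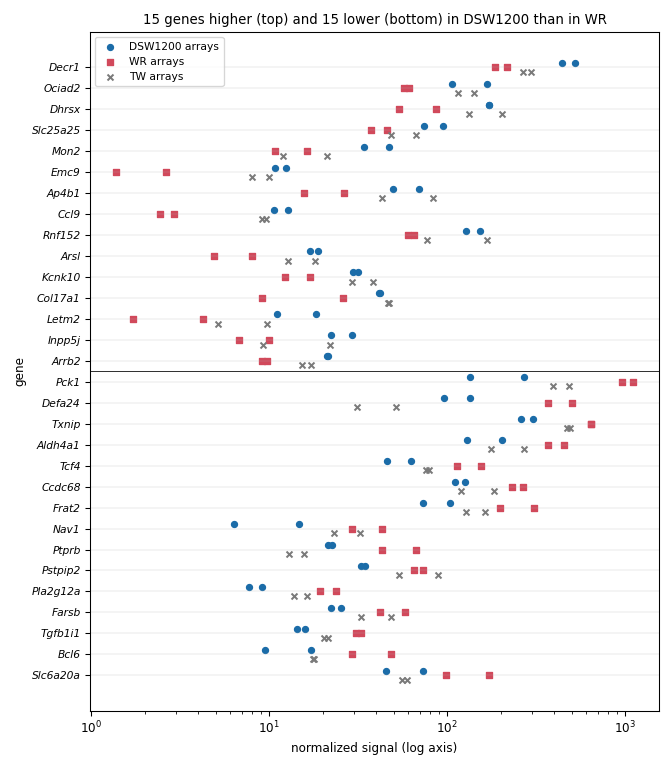
Normalized signal (horizontal log axis) of the 15 genes higher and the 15 genes lower in DSW1200 that had the smallest p among 2-fold differences without overlap, with blue circles for DSW1200, red squares for WR and grey crosses for TW arrays. The TW mean lies between the DSW1200 and WR means in 23 of the 30.

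Of these 30 genes, 6 had another bright probe set, and all 6 gave the same sign there. Of the 216 genes past the 2-fold criterion, 15 had at least 1, and 13 of these gave the same sign (86.7%), against 51.0% over 2097 such genes among all tested. A gene counted only where all its other bright probe sets shared the sign, so 51.0% is not a rate per probe set. The 216 were also chosen for large differences. The value of TW between DSW1200 and WR means for 23 of the 30 is a description, since the genes were chosen for the distance between those 2 groups.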

How the data were processed

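RNA of loosened epithelial cells was hybridised to Affymetrix rat genome arrays (Rat230_2), 2 each for DSW1200, WR, TW and SeW. The authors deposited MAS5 signal intensity per probe set on a linear scale; version and scaling target are not given in the sources used here. The methods name quantile normalization, and the deposited arrays had unlike medians, so values were quantile normalized over 8 arrays, set to at least 1 and taken to log2. Of 31099 probe sets, 20826 had 1 gene symbol by way of current gene tables, 436 several and 9837 none. Each of 14217 genes was given by its brightest single-symbol probe set, and 9258 genes were tested because their mean exceeded a signal of 6.69 (the probe set median); the other 4959 are called dim.

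Limma 3.58.1 in R 4.3.3 fitted group over 8 arrays (4 residual degrees of freedom) with an intensity trend, the contrast DSW1200 minus WR and Benjamini-Hochberg adjustment over all tested genes. Log2 changes had a median standard error of 0.264. Errors after ± in the text are these standard errors; single signals are given per array, and the number of arrays limits their precision. The method was tested on simulated data. The lists, alternatives and the rule for named genes were chosen with earlier results of these data known. Named genes were the 15 with the smallest p in each direction among 2-fold differences without overlap, since none passed the adjusted threshold, genes the study followed, and, from each list, at most 4 members by smallest p. The alternatives were other scalings, filters, offsets, ways to sum probe sets, fits and left-out arrays. The beta-actin covariate was added after the data were seen. PCR arrays, protein blots and ulcer data were not used here.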

Additional observations from a re-analysis of the deposited data

How the results depend on the processing

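Counts of genes past adjusted p 0.05 (limma, 0 as reported) were 2 on values as deposited, and 1 each after median centring, quantile normalization of the 4 arrays alone, an offset of 32 and all probe sets as separate features. They ran from 0 to 5 when single arrays were left out, with the lone array assumed to vary like the other groups. The 5 came without DSW1200 array 1, and 1 without DSW1200 array 2. The other alternatives gave 0, the actin covariate included. Counts past the 2-fold criterion (216 as reported) were 413 on values as deposited, 1226 with no filter, 32 with a stricter filter, 9 with an offset of 32 and 335 with all probe sets, and ran from 216 to 515 without single arrays. The 515 came without DSW1200 array 2 and 445, 432 and 357 without DSW1200 array 1, WR array 1 and WR array 2. The share higher in DSW1200 was 42.1% as reported and 6.05% on values as deposited.

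The replicate numbers did not pair the arrays: same-numbered DSW1200 and WR arrays deviated together at a correlation of -0.065. With the replicate number as a block, 0 genes passed and 472 had an unadjusted p under 0.05, against 541 without it.

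Of 104 named genes, 8 turned direction under some alternative. Gsr was at -0.26 and Bad at -0.34 on values as deposited. With the actin covariate Mcl1 was at -0.23, Cpa3 at 0.032, Thy1 at 0.10 and Tff2 at -0.45. Without single arrays the log2 changes ran from -0.46 to 0.64 for Gsr, from -0.23 to 0.27 for Bad, from -0.048 to 0.45 for Mcl1, from -2.63 to 0.45 for Reg3b and from -0.22 to 1.29 for Insig1. The cause of these shifts was not tested. List medians stayed within the replicate spread in 645 of 780 recalculations. Leaving out a TW or SeW array could not change these medians, so part of the 645 was fixed in advance. Faint signals limit most of the 2-fold genes, and 2 arrays a group limit all of them.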
